A study of Mus musculus with 4 samples.

Results

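S100 proteins are small calcium-binding proteins, and 8 of their genes were followed here across the cells of the mouse brain hemisphere on the side of an ischemic stroke: S100a1, S100a4, S100a6, S100a8, S100a9, S100a10, S100a11 and S100b. They were matched by symbol among 55357 genes of the count matrices, and their unique molecular identifiers (UMIs, each standing for 1 captured transcript) were summed in each library and cell class. The single-cell libraries came from wild type mice whose infarct cavity received hydrogel microspheres (MAPS) at day 5 after the stroke and whose hemisphere was taken at day 14. In 3 groups the microspheres carried extracellular vesicles (EVs), and the labels name these IL-4 C1q EV+MAPS (written IL-4/C1q EV here), IL-1a TNFa C1q EV+MAPS (written IL-1a/TNFa/C1q EV) and UT EV+MAPS (written UT EV). The series describes vesicles made by reactive astrocytes, and UT EV is read here as vesicles of untreated astrocytes, the reference of most ratios below. The last group received the microspheres alone (MAPS). Stroke, surgery, microspheres and genotype were thus shared by all 4 groups, and healthy controls were not analysed here. Each group was 1 library, and the labels do not give the number of animals behind it. No difference below therefore has a replicate check, no test was possible, and the effect of a group and of its library cannot be told apart. Each interval is a 95% interval that covers counting error only.

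S100A8 and S100A9 pair to form calprotectin, which neutrophils hold in their cytosol in bulk and release at sites of injury, where it signals through TLR4 and RAGE. Proteins released in this way by stressed or damaged cells are called alarmins. Other family members act mostly inside the cell: S100A10 and S100A11 bind annexins at the membrane, S100A4 binds non-muscle myosin and marks motile cells, and S100A6 binds the adaptor CACYBP. S100B and S100A1 are among the family members known from glia, and S100B is a long-used glial marker that is released after brain injury.

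Of the 8 members, 7 had an entry among RefSeq promoters of build GRCm38.p6, which run from 250 bases before the annotated start to 50 bases after it (all but S100a10). The promoters of S100a8 and S100a9 are shown because these genes make up the alarmin pair that the first results turn on. They lie on chromosome 3 at chr3:90668821-90669120 on the plus strand and chr3:90695672-90695971 on the minus strand. Capitals mark the letters TATAAA, which begin 30 bases before the annotated start in S100a8 and 0 bases from it in S100a9.
S100a8: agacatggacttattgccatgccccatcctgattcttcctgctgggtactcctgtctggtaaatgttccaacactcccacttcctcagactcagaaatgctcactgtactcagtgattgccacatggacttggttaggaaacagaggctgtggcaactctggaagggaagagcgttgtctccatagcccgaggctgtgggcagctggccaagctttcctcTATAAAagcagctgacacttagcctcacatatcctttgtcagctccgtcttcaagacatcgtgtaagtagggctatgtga
S100a9: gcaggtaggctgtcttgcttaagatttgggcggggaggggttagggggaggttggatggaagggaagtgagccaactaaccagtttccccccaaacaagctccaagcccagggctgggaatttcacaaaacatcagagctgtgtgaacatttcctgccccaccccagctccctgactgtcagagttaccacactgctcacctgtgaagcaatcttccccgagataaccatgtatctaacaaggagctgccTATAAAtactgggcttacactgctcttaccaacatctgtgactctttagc
Searched on both strands, TATAAA was in 3 of the 7 member promoters, those of S100a4, S100a8 and S100a9, and in 13.6% of 32851 promoters. The C/EBP letters TTGCNNAA were in that of S100a9 and in 10.8% of promoters. The AP-1 letters TGANTCA were in that of S100a11 and in 7.81% of promoters. The GC box GGGCGG was in those of S100a9 and S100a11 and in 35.7% of promoters. None of these motifs is contained in another. These matches describe the letters of each window and no more.

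After filters, 13622 cells of IL-4/C1q EV, 14220 of IL-1a/TNFa/C1q EV, 12255 of UT EV and 13132 of MAPS remained, with a median of 2422, 2535, 2631 and 4468.5 UMIs. The MAPS library was deeper, and the median mitochondrial share was 0.546 to 0.573% in the EV libraries, against 1.43% in MAPS. The smallest barcode of IL-1a/TNFa/C1q EV held 1233 UMIs, against 500 in each other library. Between 43 and 64 barcodes were shared by any 2 libraries, at most 0.453% of a library. A cell was placed in a class when at least 3 of 8 class markers had a UMI and led every other class by 2, with no S100 gene among the markers. Such a class is a range of cells around a threshold. The gate left out 2409 cells of IL-4/C1q EV, 2519 of IL-1a/TNFa/C1q EV, 1992 of UT EV and 911 of MAPS, and 776, 768, 631 and 141 of the gated cells had exactly 3 markers. Levels are given as CPM, the UMIs of a gene scaled to a class total of 1000000.

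The alarmin pair S100a8 and S100a9 was concentrated in few cells, and these were most numerous with IL-4/C1q EV. Cells with at least 10 UMIs of the pair numbered 435 in IL-4/C1q EV, 94 in IL-1a/TNFa/C1q EV, 47 in UT EV and 18 in MAPS. They were 3.19% (2.904 to 3.502) of the cells of IL-4/C1q EV, 0.661% of those of IL-1a/TNFa/C1q EV (0.535 to 0.808), 0.384% (0.282 to 0.510) of UT EV and 0.137% (0.0813 to 0.217) of MAPS. No 2 of these intervals overlapped. The same cells held 98.0%, 96.6%, 93.9% and 94.7% of all UMIs of the pair in the 4 libraries. Both transcripts were found together in 432 of the 435 cells, 93 of the 94, all 47 and all 18. A marker of neutrophils was present in 433, 92, 47 and 18 of them, while the granule genes Ngp or Camp, which neutrophils express as they mature in the marrow, were present in 13, 9, 1 and 0.

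Neutrophils carry little RNA, so the floor of 1233 UMIs in IL-1a/TNFa/C1q EV bears on these counts. The cells with at least 10 UMIs of the pair had a median of 1232 UMIs in IL-4/C1q EV, 2377 in IL-1a/TNFa/C1q EV, 1258 in UT EV and 1905 in MAPS. With that floor set in all libraries, they were 1.86% (1.62 to 2.12) of IL-4/C1q EV, 0.661% of IL-1a/TNFa/C1q EV, 0.236% (0.153 to 0.349) of UT EV and 0.108% (0.0573 to 0.184) of MAPS. The order was the same, with IL-4/C1q EV at 217 cells against 94 in IL-1a/TNFa/C1q EV. At this floor the intervals of UT EV and MAPS overlapped.

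The neutrophil gate took 379 cells of IL-4/C1q EV, 55 of IL-1a/TNFa/C1q EV, 40 of UT EV and 15 of MAPS. Of the cells rich in the pair it held 343, 47, 30 and 10, and a further 74, 29, 16 and 6 lay outside every gate. In the ungated cells of IL-4/C1q EV, 88.95% of S100a9 UMIs came from 79 cells of a cluster led by S100a9, Camp, S100a8, Ngp and Retnlg, the cluster that took the neutrophil name. The neutrophil gate thus held 74.7% of the S100a8 UMIs of IL-4/C1q EV and 73.3% of its S100a9 UMIs.

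**Figure D1:**
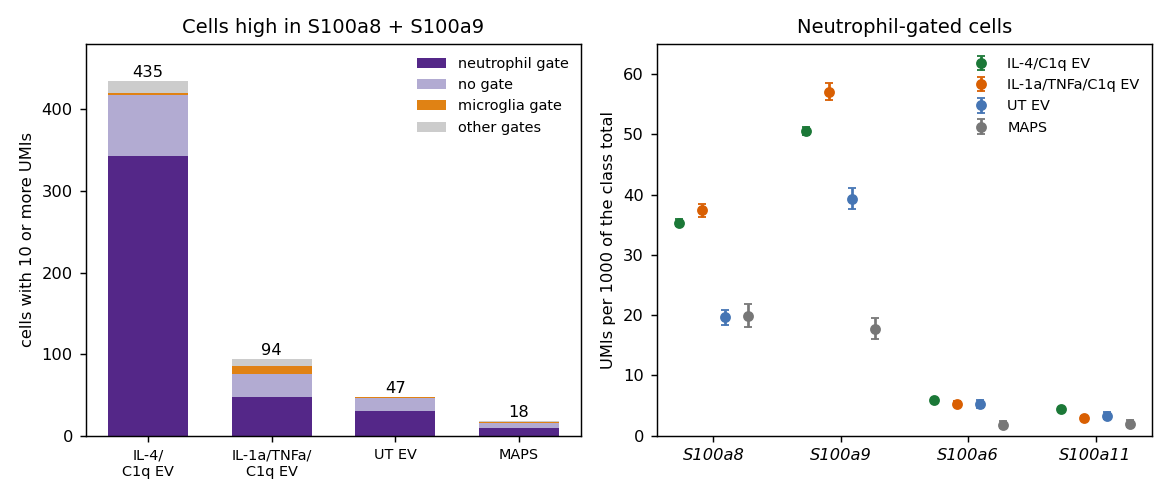
Left, cells with at least 10 UMIs of S100a8 and S100a9 together in each library (vertical axis, number of cells), stacked by the gate they fell in; right, the level of each gene in neutrophil-gated cells (vertical axis, per 1000 UMIs of the class), with bars for exact Poisson 95% intervals. The left columns stand at 435, 94, 47 and 18 cells, while the right levels of IL-4/C1q EV and IL-1a/TNFa/C1q EV lie close together.

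Within neutrophil-gated cells the summed level of the pair was close between IL-4/C1q EV and IL-1a/TNFa/C1q EV, but not without the 5 highest cells of each library. S100a8 stood at 35371 CPM in IL-4/C1q EV, 37377 in IL-1a/TNFa/C1q EV, 19618 in UT EV and 19835 in MAPS. S100a9 stood at 50582 CPM in IL-4/C1q EV, 57060 in IL-1a/TNFa/C1q EV, 39340 in UT EV and 17697 in MAPS. UT EV and MAPS had under 50 gated cells each, so no ratio to them is given. S100a8 was found in 96.8% of the gated cells of IL-4/C1q EV, 90.9% of IL-1a/TNFa/C1q EV, 97.5% of UT EV and 93.3% of MAPS.

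Between IL-4/C1q EV and IL-1a/TNFa/C1q EV the ratio in neutrophil-gated cells was 0.946 (0.915 to 0.979) for S100a8 and 0.886 (0.863 to 0.911) for S100a9. The top 5 of the 379 cells of IL-4/C1q EV held 19.5% of the S100a8 UMIs, against 58.2% in the top 5 of the 55 cells of IL-1a/TNFa/C1q EV. Without the 5 highest cells of each library the log2 ratio was 0.71 for S100a8 and 0.60 for S100a9, and with the common floor of UMIs it was 0.27 and 0.18, so the direction turned in both cases and, without those cells, both lay past 1.5-fold (log2 0.58). S100a6 stood at 5946 CPM in IL-4/C1q EV, 5299 in IL-1a/TNFa/C1q EV, 5276 in UT EV and 1820 in MAPS. S100a11 stood at 4420 CPM in IL-4/C1q EV, 2936 in IL-1a/TNFa/C1q EV, 3318 in UT EV and 2002 in MAPS. Its ratio between IL-4/C1q EV and IL-1a/TNFa/C1q EV was 1.51 (1.34 to 1.69), and it was the 1 member of 4 counted that passed 1.5-fold, where 41.6% of all 1507 genes counted did. After thinning each cell to 1000 UMIs its log2 ratio was 0.38, inside 1.5-fold.

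S100a4 had 8 UMIs in the neutrophil-gated cells of IL-4/C1q EV and 0 in each other library, where a floor of 3 counts stands for 26.1 CPM in IL-1a/TNFa/C1q EV, 61.8 in UT EV and 136 in MAPS. The granule proteins that neutrophils make early gave another contrast between the same cells. Camp, a cathelicidin, had a ratio of 0.444 (0.400 to 0.492) and Ngp one of 0.631 (0.533 to 0.750). Of the 5 granule genes with enough UMIs, 3 were lower in IL-4/C1q EV by at least 1.5-fold, as were 11.5% of all genes counted. With the common floor of UMIs the log2 ratio of Camp was -0.37 and that of Ngp turned to 0.14. Ngp or Camp was present in 9 of the 379 gated cells of IL-4/C1q EV and in 5 of the 55 of IL-1a/TNFa/C1q EV, so these sums also rest on few cells.

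Outside neutrophils the pair came from a handful of cells and from a thin spread over the rest. Cells with fewer than 10 UMIs of the pair had at least 1 of them in 6.10% of cases in IL-4/C1q EV, 3.76% in IL-1a/TNFa/C1q EV, 1.47% in UT EV and 0.587% in MAPS, the same order as the neutrophil counts. In astrocyte-gated cells, which should lack it, S100a8 was found in 1.34% of cells of IL-4/C1q EV, 1.62% of IL-1a/TNFa/C1q EV, 0.316% of UT EV and 0.118% of MAPS, at median depths of 1627, 1818, 1713 and 3884 UMIs. Shares of this size are not read as expression by the class, and their source was not tested. In astrocytes of IL-4/C1q EV, 1 cell held 18 of the 24 S100a8 UMIs.

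Microglia-gated cells had 24.6 CPM of S100a8 in IL-4/C1q EV, 57.8 in IL-1a/TNFa/C1q EV, 3.04 in UT EV and 2.39 in MAPS. For S100a9 they had 33.0 CPM in IL-4/C1q EV, 97.3 in IL-1a/TNFa/C1q EV, 1.74 in UT EV and 2.51 in MAPS. Of 6044 microglia-gated cells of IL-1a/TNFa/C1q EV, 9 held 93.6% of the UMIs of the pair, and its level was 155 CPM with them and 10.0 CPM without them. In IL-4/C1q EV, 3 cells held 66.4%, and the level of the pair was 57.6 CPM with them and 19.4 CPM without them. Monocyte/macrophage-gated cells of IL-4/C1q EV stood at 654 CPM of the pair, of which 92.7% came from 1 cell. S100a8 was found in 10.7% (7.08 to 15.2) of monocytes/macrophages with IL-4/C1q EV, 6.94% (3.94 to 11.2) with IL-1a/TNFa/C1q EV and 4.21% (1.16 to 10.4) with UT EV, at median depths of 3937, 4022.5 and 4236 UMIs. In IL-4/C1q EV and IL-1a/TNFa/C1q EV these shares were above those of astrocytes, in deeper cells. After thinning they were 4.62% (2.33 to 8.12) in IL-4/C1q EV and 2.31% (0.756 to 5.32) in IL-1a/TNFa/C1q EV, and the intervals overlapped those of astrocytes.

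**Figure D2:**
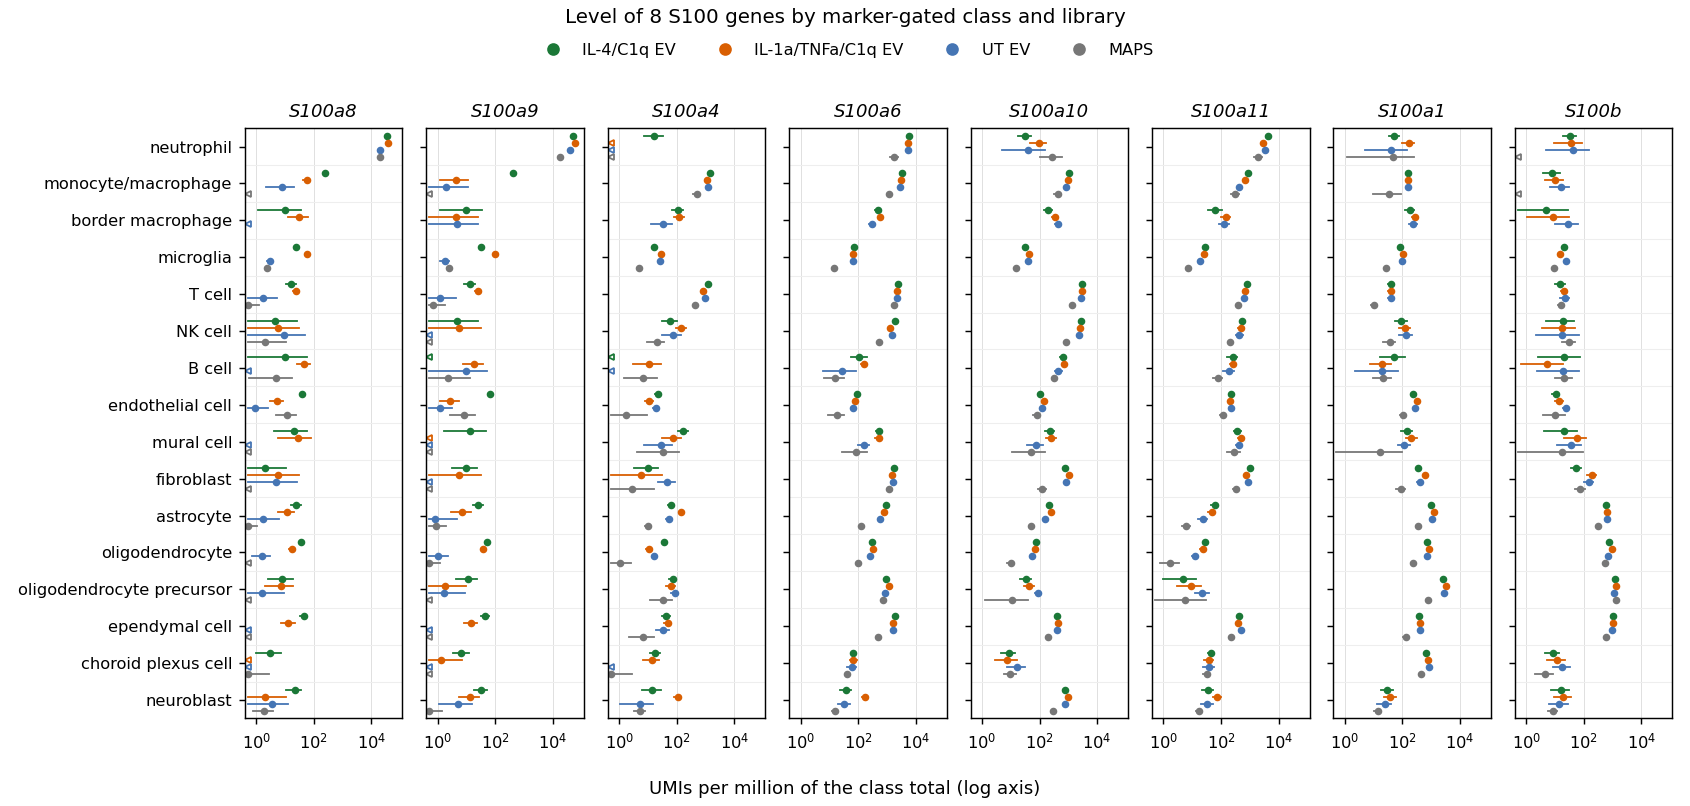
Levels of the 8 S100 genes in each cell class and library, as CPM of the class on a log axis; points are single libraries, bars are exact Poisson 95% intervals, open triangles mark 0 UMIs, and groups under 15 cells are not drawn. S100a8 and S100a9 peak in neutrophil-gated cells at 17697 to 57060 CPM, S100a4 in monocyte/macrophage- and T cell-gated cells, and S100a1 in oligodendrocyte precursors.

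S100a4, S100a6, S100a10 and S100a11 were measured in monocytes/macrophages and T cells as well as in other classes. Monocyte/macrophage-gated cells had 1404 CPM of S100a4 in IL-4/C1q EV, 1108 in IL-1a/TNFa/C1q EV, 1196 in UT EV and 495 in MAPS. T cell-gated cells had 1192 CPM of S100a4 in IL-4/C1q EV, 847 in IL-1a/TNFa/C1q EV, 941 in UT EV and 439 in MAPS. NK cell-gated cells, also lymphocytes, had 58.9, 141, 72.2 and 20.1 CPM in the same order of libraries. Microglia stood at 16.4 CPM in IL-4/C1q EV, 28.7 in IL-1a/TNFa/C1q EV, 26.1 in UT EV and 4.73 in MAPS. In each library the level in monocytes/macrophages and T cells was thus far above that in microglia and NK cells.

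Much of the S100a4 lay in cells that no gate took. These held 52.3% of the S100a4 UMIs of IL-4/C1q EV, 50.02% of IL-1a/TNFa/C1q EV, 50.4% of UT EV and 13.1% of MAPS. In the EV libraries most of that came from 2 clusters. The cluster led by Gpnmb, Mmp12 and Atp6v0d2, genes of lipid-laden and tissue-remodelling macrophages, gave 64.5% of the ungated S100a4 UMIs in IL-4/C1q EV, 43.0% in IL-1a/TNFa/C1q EV, compared with 58.2% in UT EV. Its ungated cells stood at 902 CPM in IL-4/C1q EV, 629 in IL-1a/TNFa/C1q EV, compared with 564 in UT EV. The cluster led by Ccl17, Ccl22 and Cd209a, genes of dendritic cells, gave 27.3%, 48.3% and 32.2%. Its ungated cells stood at 1792 CPM in IL-4/C1q EV, 1453 in IL-1a/TNFa/C1q EV, 1619 in UT EV and 406 in MAPS.

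S100a6 was the most widely spread member. In IL-4/C1q EV its order ran from neutrophils at 5946 CPM through monocytes/macrophages at 3381 and T cells at 2356 to NK cells at 1888 (1711 to 2078), ependymal cells at 1870 (1783 to 1960) and fibroblasts at 1771 (1657 to 1891). The intervals of the last 3 overlap, and below them came oligodendrocyte precursors at 930 (857 to 1008) and astrocytes at 921 (862 to 982), which overlap as well. Ependymal cells, the ciliated lining of the ventricles, stood at 1870 CPM in IL-4/C1q EV, 1682 in IL-1a/TNFa/C1q EV, 1662 in UT EV and 481 in MAPS. Their ratio to UT EV was 1.13 (1.03 to 1.22) in IL-4/C1q EV and 1.01 (0.932 to 1.10) in IL-1a/TNFa/C1q EV.

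S100a10, the annexin A2 partner also known as p11, was highest in T cells and NK cells. T cells had 3044 CPM in IL-4/C1q EV, 3096 in IL-1a/TNFa/C1q EV, 2715 in UT EV and 1293 in MAPS. NK cells had 2676 CPM in IL-4/C1q EV, 2518 in IL-1a/TNFa/C1q EV, 2419 in UT EV and 840 in MAPS. It was found in 95.5%, 96.6%, 94.4% and 90.6% of T cells. Next in IL-4/C1q EV came monocytes/macrophages at 1067 CPM, then neuroblasts at 781 (710 to 858) and fibroblasts at 773 (699 to 854), which overlap.

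S100a11, a partner of annexin A1, stood in fibroblasts at 1028 CPM in IL-4/C1q EV, 746 in IL-1a/TNFa/C1q EV, 843 in UT EV and 325 in MAPS. Monocytes/macrophages had 862 CPM in IL-4/C1q EV, 681 in IL-1a/TNFa/C1q EV, 433 in UT EV and 310 in MAPS. T cells had 798 CPM in IL-4/C1q EV, 675 in IL-1a/TNFa/C1q EV, 649 in UT EV and 391 in MAPS. Its pseudogene S100a11-ps took at most 2 UMIs in a library, and reads that match both copies were not measured.

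Among the EV libraries, S100a11 in monocytes/macrophages was higher with both the IL-4/C1q and the IL-1a/TNFa/C1q vesicles than with UT EV. Its ratio to UT EV was 1.99 (1.72 to 2.31) in IL-4/C1q EV and 1.57 (1.35 to 1.84) in IL-1a/TNFa/C1q EV. For IL-4/C1q EV the stricter gate and clusters left too few cells for a value, so the ratio was not checked under those class definitions. The ratio of IL-1a/TNFa/C1q EV lay inside 1.5-fold after thinning (log2 0.49) and when set against genes of like transcript length (log2 0.45). It was found in 81.1% of the cells of IL-4/C1q EV, 71.8% of those of IL-1a/TNFa/C1q EV, against 68.4% of UT EV. The 5 highest cells held 15.9%, 12.2% and 25.2% of its UMIs. After thinning each cell to 1000 UMIs these shares were 50.4% (43.9 to 56.9), 40.7% (34.1 to 47.6) and 36.2% (26.5 to 46.7), and the intervals of IL-4/C1q EV and UT EV overlap. In the same cells of IL-4/C1q EV over UT EV, S100a4 had a ratio of 1.17 (1.07 to 1.29), S100a6 of 1.21 (1.14 to 1.29) and S100a10 of 1.27 (1.14 to 1.42). Counted with S100a8 and S100a9, whose UMIs came from single cells, 3 of 7 members passed 1.5-fold, against 16.4% of all genes. For IL-1a/TNFa/C1q EV over UT EV it was 2 of 6, S100a8 and S100a11, against 19.2% of all genes.

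T cells differed little in these members. IL-4/C1q EV over UT EV gave 1.27 (1.19 to 1.35) for S100a4, 1.08 for S100a6, 1.12 for S100a10 and 1.23 for S100a11. Of 6 members counted, 0 passed 1.5-fold, against 10.2% of all genes. IL-1a/TNFa/C1q EV over UT EV gave 0.900 for S100a4, 1.002 for S100a6, 1.14 for S100a10 and 1.04 for S100a11. There, 2 of 8 passed, S100a8 and S100a9 at 75 and 78 UMIs, of which 2 cells held 75.8%, against 13.7% of all genes. The S100a4 ratio of IL-4/C1q EV was larger where the T cells were set by the stricter gate (log2 0.57) or by clusters (log2 0.64) than in the gate used (log2 0.34).

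In microglia, the resident macrophages of the brain, S100a4 was lower with IL-4/C1q EV, at a ratio to UT EV of 0.627 (0.539 to 0.729), and S100a11 was at 1.40 (1.22 to 1.62). With the stricter gate the log2 ratio of S100a4 was -0.40 and with clusters -0.44, both inside 1.5-fold. S100a1 stood at 0.865, S100a6 at 1.10, S100a10 at 0.809 and S100b at 0.872. With S100a8 at 8.09 and S100a9 at 19.03, 3 of 8 members passed 1.5-fold, against 6.36% of all genes. IL-1a/TNFa/C1q EV over UT EV gave 1.16 for S100a1, 1.10 for S100a4, 1.04 for S100a6, 1.10 for S100a10 and 1.32 for S100a11. S100b was lower there, at 0.657 (0.564 to 0.763), and S100a8 and S100a9 stood at 19.02 and 56.0. The S100b ratio lay inside 1.5-fold with the stricter gate (log2 -0.43), clusters (-0.37) and without the 5 highest cells (-0.40). Again 3 of 8 passed, against 8.51% of all genes. Without the 5 highest cells of each library the log2 ratios of S100a8 and S100a9 were 2.58 and 2.89 in IL-4/C1q EV and 2.31 and 2.53 in IL-1a/TNFa/C1q EV. The granule genes Camp, Lcn2 and Ngp had 489, 198 and 73 UMIs in these microglia-gated cells of IL-1a/TNFa/C1q EV, against 0, 8 and 0 in UT EV; their part in the S100a8 and S100a9 values was not tested.

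**Figure D3:**
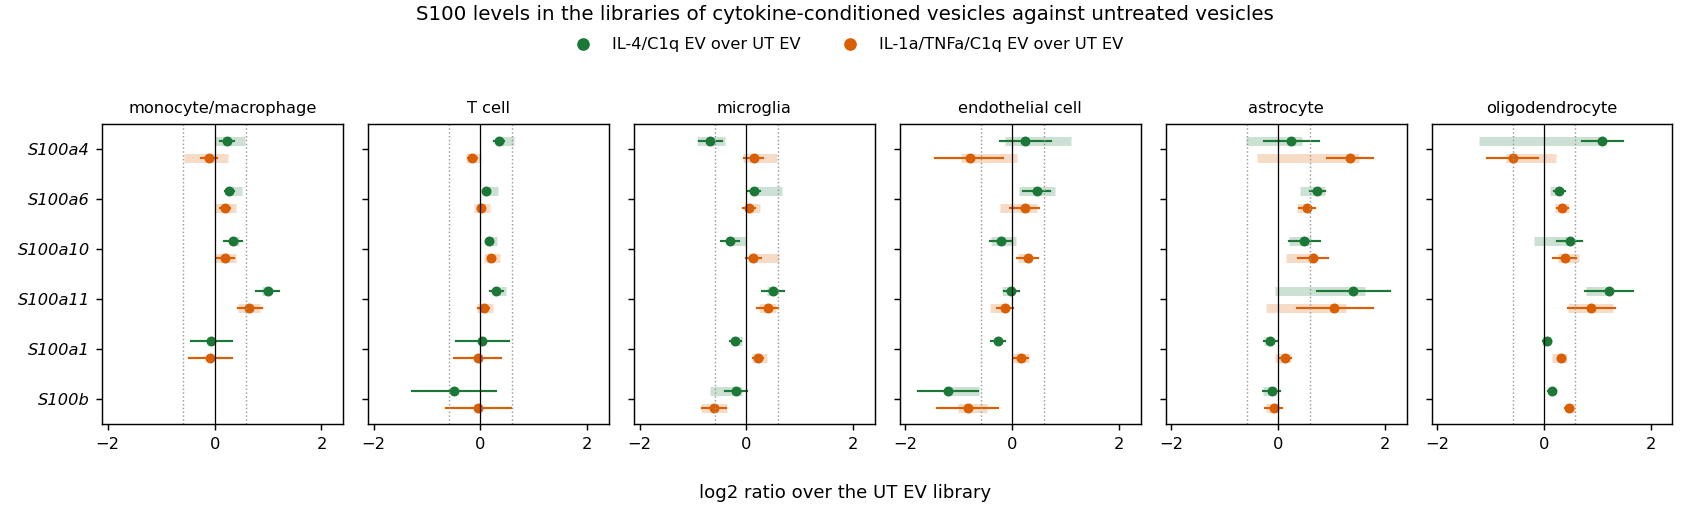
Log2 ratio of each S100 gene in IL-4/C1q EV and in IL-1a/TNFa/C1q EV over UT EV within the larger cell classes; points are ratios of the summed counts, thin bars are 95% counting intervals, pale bars are the range over the alternative settings, and dotted lines mark 1.5-fold. S100a11 in monocytes/macrophages lies past the line for both vesicles (ratios of 1.99 and 1.57), while the T cell points for S100a4, S100a6, S100a10 and S100a11 lie inside it.

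Astrocytes, the cells that respond to a brain lesion by turning reactive, had S100a6 above UT EV with both vesicles. It was past 1.5-fold with IL-4/C1q EV and inside it with IL-1a/TNFa/C1q EV. Their level was 921 CPM in IL-4/C1q EV, 803 in IL-1a/TNFa/C1q EV, 554 in UT EV and 127 in MAPS. The ratio to UT EV was 1.66 (1.504 to 1.84) in IL-4/C1q EV and 1.45 (1.31 to 1.61) in IL-1a/TNFa/C1q EV, and these intervals overlap. After thinning, 27.6% (23.2 to 32.3) of astrocytes of IL-4/C1q EV, 29.3% of those of IL-1a/TNFa/C1q EV (25.1 to 33.9), 20.3% (16.8 to 24.3) of UT EV and 10.1% (8.53 to 11.8) of MAPS had a UMI of S100a6. The thinned intervals of IL-4/C1q EV and UT EV overlap. Before thinning the shares were 34.6%, 40.4%, 34.3% and 30.5%. The 5 highest cells held 37.1% of its UMIs in IL-4/C1q EV, 29.1% in IL-1a/TNFa/C1q EV, against 18.8% in UT EV. Without them the log2 ratio was 0.41 in IL-4/C1q EV and 0.37 in IL-1a/TNFa/C1q EV, and after thinning it was 0.48 and 0.37, so that of IL-4/C1q EV also came to lie inside 1.5-fold.

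S100a11 had 60 UMIs in astrocytes of IL-4/C1q EV, 47 in those of IL-1a/TNFa/C1q EV, 28 in those of UT EV and 42 in those of MAPS. The ratio to UT EV was 2.62 (1.65 to 4.26) in IL-4/C1q EV and 2.07 (1.27 to 3.44) in IL-1a/TNFa/C1q EV, but after thinning the log2 ratio was -0.070 and -0.23, so no direction is read from it. S100a10 stood at a ratio of 1.40 (1.14 to 1.71) in IL-4/C1q EV and 1.56 (1.28 to 1.90) in IL-1a/TNFa/C1q EV. Near UT EV were S100a1, at 0.901 and 1.10, and S100b, at 0.916 and 0.9403. The other S100 genes counted in astrocytes, S100a13 and S100a16, were near UT EV as well, at 0.968 and 0.966 in IL-4/C1q EV and at 1.15 and 1.003 in IL-1a/TNFa/C1q EV. With S100a6 and S100a11 past the fold in IL-4/C1q EV, 2 of 6 members passed, against 8.53% of all genes. In IL-1a/TNFa/C1q EV it was 3 of 6, S100a4, S100a10 and S100a11, against 11.6% of all genes. None of these 3 held in every setting: the log2 ratio of S100a4 turned to -0.40 without the 5 highest cells and to -0.37 after thinning, S100a11 turned after thinning, and S100a10 lay inside 1.5-fold after thinning (log2 0.24), without the 5 highest cells (0.33), with the stricter gate (0.15) and against genes of like length (0.46).

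Markers of other cells moved with part of these astrocyte values. The 8 monocyte/macrophage markers summed to 202 CPM in astrocytes of IL-4/C1q EV, 833 in those of IL-1a/TNFa/C1q EV, 221 in those of UT EV and 114 in those of MAPS, with 2, 2, 2 and 1 of the 8 at 0. The 8 T cell markers summed to 8.09 CPM with 5 at 0, 68.4 with 1 at 0, 13.2 with 3 at 0 and 32.2 with 0 at 0. In IL-1a/TNFa/C1q EV, 5 astrocytes held 79.6% of the S100a4 UMIs, the ratio of S100a4 was 2.52 (1.87 to 3.43), and without those cells the log2 ratio was -0.40. Lcn2, a lipocalin of neutrophils and of reactive astrocytes, had 103 UMIs there against 6 in UT EV. In IL-4/C1q EV neither marker sum was above that of UT EV. Marker sums of other classes are not given here, and the part of other cells in the astrocyte values of either library was not tested. Among the clusters named astrocyte, counted over gated and ungated cells, most cells of each EV library lay in the one led by Myoc and Cldn10. It held 505 cells of IL-4/C1q EV, 437 of IL-1a/TNFa/C1q EV, against 573 of UT EV. A cluster led by Lhx2 and Chrdl1 held 106, 5 and 163, and one led by Npy and Frzb held 6, 11 and 70, and the part of this mix in the S100a6 values was not tested.

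S100a1 and S100b were both highest in oligodendrocyte precursors among the classes with at least 15 cells. Oligodendrocyte precursors had 2624 CPM of S100a1 in IL-4/C1q EV, 3265 in IL-1a/TNFa/C1q EV, 2697 in UT EV and 766 in MAPS. Astrocytes had 993 CPM in IL-4/C1q EV, 1209 in IL-1a/TNFa/C1q EV, 1103 in UT EV and 345 in MAPS. Oligodendrocytes, at 728 CPM (701 to 754), and choroid plexus cells, at 683 (643 to 723), overlapped in IL-4/C1q EV. For S100b, oligodendrocyte precursors had 1208 CPM in IL-4/C1q EV, 1282 in IL-1a/TNFa/C1q EV, 1076 in UT EV and 1348 in MAPS. The precursor values of MAPS rest on 22 cells, of which 5 held 76.1% of the S100a1 UMIs and 76% of the S100b UMIs. Ependymal cells followed with 1046, 1063, 962 and 578 CPM, oligodendrocytes with 773, 964, 702 and 542 CPM, and astrocytes with 606, 622, 662 and 304 CPM. T cells stood at 15.3, 20.8, 21.5 and 15.5 CPM of S100b, a low level given for comparison.

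In oligodendrocytes, S100b had a ratio to UT EV of 1.37 (1.32 to 1.43) in IL-1a/TNFa/C1q EV and 1.10 (1.05 to 1.15) in IL-4/C1q EV. It was found in 39.3% of oligodendrocytes of IL-4/C1q EV, 43.1% of IL-1a/TNFa/C1q EV, 39.7% of UT EV and 35.7% of MAPS. After thinning the shares were 25.7% (22.9 to 28.7), 30.7% (28.2 to 33.3), 24.8% (22.4 to 27.4) and 19.02% (15.9 to 22.4), so the interval of IL-1a/TNFa/C1q EV lay above that of UT EV. S100a1 had a ratio of 1.24 (1.19 to 1.30) in IL-1a/TNFa/C1q EV and 1.04 (0.990 to 1.09) in IL-4/C1q EV. S100a11 was low, at 28.4 CPM in IL-4/C1q EV, 22.8 in IL-1a/TNFa/C1q EV, against 12.3 in UT EV, with ratios of 2.31 (1.70 to 3.15) and 1.85 (1.37 to 2.51). With S100a4, S100a8, S100a9 and S100a11, 4 of 8 members passed in each, against 5.33% of all genes for IL-4/C1q EV and 7.94% for IL-1a/TNFa/C1q EV. The 5 highest cells held 80.1% of the S100a8 UMIs and 88.7% of the S100a9 UMIs in IL-4/C1q EV. In IL-1a/TNFa/C1q EV they held 78.9% and 87.8%. S100a4 was higher in IL-4/C1q EV, at 2.11, and lower in IL-1a/TNFa/C1q EV, at 0.665, and neither direction held in every setting. The log2 ratio of IL-4/C1q EV turned to -1.22 with clusters and -0.97 without the 5 highest cells, while in IL-1a/TNFa/C1q EV it turned to 0.21 with called doublets kept. Without the 5 highest cells S100a11 was at log2 0.78 in IL-4/C1q EV and 0.45 in IL-1a/TNFa/C1q EV. In IL-4/C1q EV the 8 monocyte/macrophage markers summed to 726 CPM in oligodendrocytes, against 386 in UT EV, with 1 of 8 at 0 in both; their part in the S100a4 and S100a11 values was not tested. In IL-1a/TNFa/C1q EV the sum was 389 CPM.

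Oligodendrocyte precursors had 1 of 5 members past the fold for each vesicle, against 7.5% of all genes in IL-4/C1q EV and 12.1% in IL-1a/TNFa/C1q EV. It was S100a10 in both, at 22 UMIs in IL-4/C1q EV, 25 in IL-1a/TNFa/C1q EV, against 55 in UT EV, with ratios of 0.386 and 0.498. After thinning the log2 ratio was -0.73 in IL-4/C1q EV and turned to 0.68 in IL-1a/TNFa/C1q EV. S100a1 stood at 0.973 and 1.21, and S100b at 1.12 and 1.19. In endothelial cells, the lining of blood vessels, S100b was lower with both, at 0.437 (0.293 to 0.642) in IL-4/C1q EV and 0.561 (0.374 to 0.829) in IL-1a/TNFa/C1q EV, from 42, 40 and 81 UMIs in IL-4/C1q EV, IL-1a/TNFa/C1q EV and UT EV. Its levels of 10.4, 13.4 and 23.9 CPM were near those of T cells. S100a11, at 219 CPM in IL-4/C1q EV, 202 in IL-1a/TNFa/C1q EV, with 221 in UT EV, was near UT EV in both. Past the fold were 3 of 8 members in IL-4/C1q EV, S100a8, S100a9 and S100b, against 8.51% of all genes. There, the 5 highest of 1536 cells held 85.1% of the S100a8 UMIs and 83.3% of the S100a9 UMIs. In IL-1a/TNFa/C1q EV it was 2 of 6, S100a4 and S100b, against 9.64% of all genes. The log2 ratio of that S100a4 value turned to 0.081 with clusters. In mural cells, S100a6 had a ratio of 3.43 in IL-4/C1q EV, but 5 cells held 93.8% of its UMIs, and the monocyte/macrophage markers summed to 5926 CPM there against 221 in UT EV, with 6 of 8 at 0 in both. Without those cells the log2 ratio was -0.45. In neuroblasts of IL-1a/TNFa/C1q EV, 3 of 4 members counted passed the fold over UT EV, against 14.2% of all genes. These were S100a4 at 21.1, S100a6 at 5.13 (3.09 to 8.92) and S100a11 at 2.21 (1.24 to 4.06). For S100a4, 5 cells held 91.1% of the UMIs, and the log2 ratio was -0.33 with clusters. S100a6 had 86 UMIs against 19, and S100a11 had 37 against 19. The part of other cells in these values was not tested.

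With UT EV, S100a1, S100a4, S100a6, S100a10, S100a11 and S100b were higher than with microspheres alone in microglia, T cells, astrocytes and oligodendrocytes, before transcript length was considered and with S100b in T cells within counting error. In microglia S100a4 was 5.51 times (4.66 to 6.55) its MAPS level, S100a6 4.53 times (4.11 to 5.01), S100a1 3.55 times (3.29 to 3.84), S100a11 2.67 times, S100a10 2.62 times and S100b 2.48 times, while S100a8 stood at 1.27 (0.898 to 1.78) and S100a9 at 0.691 (0.449 to 1.04). In astrocytes S100a4 was 5.35 times its MAPS level, S100a6 4.35 times, S100a11 3.73 times, S100a1 3.2 times, S100a10 3.06 times and S100b 2.18 times. T cells gave 3.93 for S100a1, 2.15 for S100a4, 2.10 for S100a10, 1.66 for S100a11, 1.39 (0.918 to 2.05) for S100b and 1.26 for S100a6. Oligodendrocytes gave 2.90 for S100a1, 2.47 for S100a6 and 1.29 for S100b, with higher ratios for S100a4, S100a10 and S100a11, which had 5, 45 and 8 UMIs in MAPS. Members higher by at least 1.5-fold were 6 of 8 in microglia against 11.5% of all genes, 4 of 6 in T cells against 13.9%, 6 of 6 in astrocytes against 14.4% and 5 of 6 in oligodendrocytes against 17.1%.

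Transcript length moved with the same contrast. The longest annotated transcripts of the members run from 498 to 783 bases, save S100b with 1484. Over all genes the median log2 ratio of UT EV to MAPS was -1.09 in microglia, -0.85 in T cells, -0.81 in astrocytes and -0.71 in oligodendrocytes. Among the tenth of genes with the shortest transcripts it was 0.52, 0.73, 0.98 and 1.02. Set against genes of like length, the log2 ratio in microglia was 1.94 for S100a4, 1.66 for S100a6, 1.42 for S100b, 1.31 for S100a1, 0.90 for S100a11 and 0.87 for S100a10. In astrocytes it was 1.44 for S100a4, 1.29 for S100b, 1.14 for S100a6, 0.92 for S100a11, 0.70 for S100a1 and 0.63 for S100a10. In T cells it was 1.25 for S100a1, 0.62 for S100b, 0.37 for S100a4, 0.34 for S100a10, 0.00 for S100a11 and -0.40 for S100a6. In oligodendrocytes it was 2.93 for S100a4, 1.80 for S100a11, 1.42 for S100a10, 0.52 for S100a1, 0.28 for S100a6 and 0.23 for S100b. S100a6 in T cells thus turned its direction, and the T cell values of S100a4, S100a10 and S100a11 came to lie inside 1.5-fold. Those of S100a1 and S100a6 in oligodendrocytes came to lie inside it as well.

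The libraries compared also differed in cluster, and the clusters are counted here over all kept cells, gated or not. Microglia of MAPS lay mostly in 2 clusters led by Slc2a5 and P2ry12 and by Lpl and Ch25h, with 62 and 30 cells of UT EV against 4955 and 1800 of MAPS. T cells of MAPS lay in a cluster led by Cd8a (0 cells of UT EV, 1387 of MAPS), and those of UT EV in one led by Il17a and Areg (650 cells of UT EV, 27 of MAPS). Astrocytes of UT EV lay mostly in a cluster led by Myoc (573 cells, and 63 of MAPS). UT EV, the depth of its library and these clusters cannot be told apart from one another in this contrast.

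**Figure D4:**
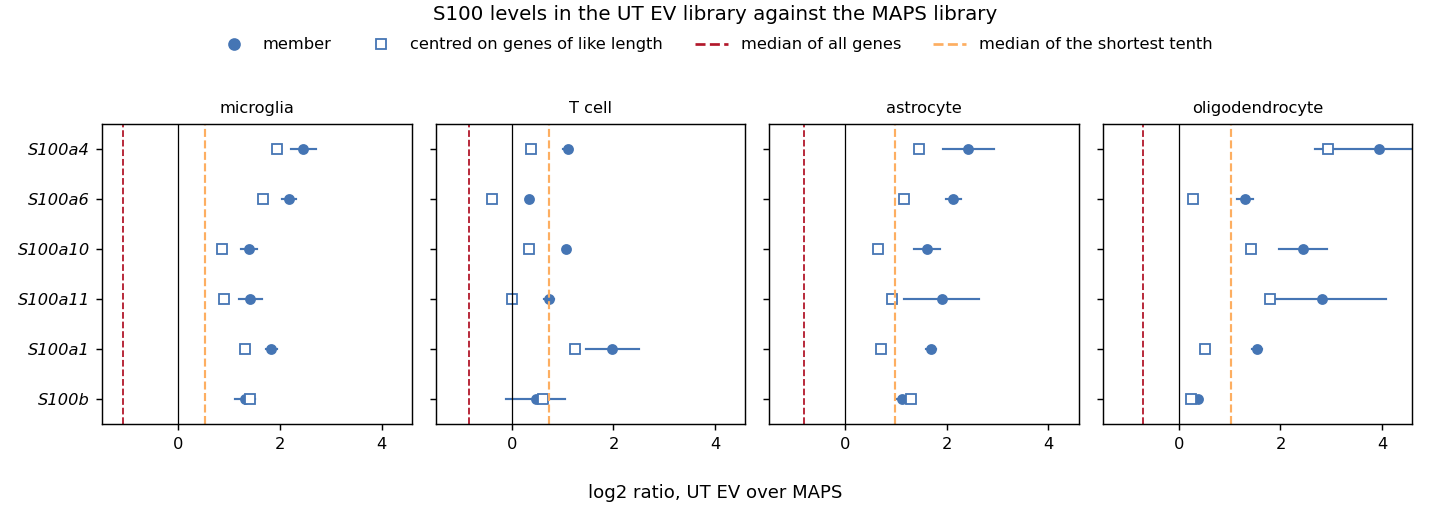
Log2 ratio of each S100 gene in UT EV over MAPS in microglia, T cells, astrocytes and oligodendrocytes; filled points are the members, open squares are the same values centred on genes of like transcript length, bars are 95% counting intervals, and dashed lines mark the median of all genes and of the tenth with the shortest transcripts. The all-gene medians lie between -1.09 and -0.71 and the short-gene medians between 0.52 and 1.02, with most members above both.

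Genes that work with S100 proteins did not all follow them. Of the 6 intracellular partners, 5 were counted in monocytes/macrophages. In IL-1a/TNFa/C1q EV over UT EV 4 of these 5 were lower by at least 1.5-fold: Anxa1 at 0.335, Myh9, a heavy chain of non-muscle myosin, at 0.477, Anxa2 at 0.607 and the scaffold gene Ahnak at 0.616. Of all genes counted there, 12.2% were lower by as much. These partner ratios are not set against genes of like transcript length. Without the 5 highest cells of each library the log2 ratio of Anxa1 was -0.50 and that of Anxa2 -0.34, both inside 1.5-fold. In IL-4/C1q EV over UT EV 1 of 5 was lower, Anxa2 at 0.631. Of the receptors and adaptors, 3 of 7 were counted in monocytes/macrophages and 0 passed the fold for either vesicle. In microglia 6 of 7 were counted and 1 was lower, the scavenger receptor Cd36, at 0.387 in IL-4/C1q EV and 0.500 in IL-1a/TNFa/C1q EV. In T cells of IL-4/C1q EV, Bsg, the gene of the S100A9-binding receptor basigin, stood at 1.65 (1.48 to 1.85), though at a log2 ratio of -0.23 where T cells were set by clusters, and Cacybp, the S100A6 partner, at 0.587. In oligodendrocytes Anxa1 stood at 2.05 in IL-4/C1q EV and 3.81 in IL-1a/TNFa/C1q EV, but without the 5 highest cells the log2 ratio was -0.96 and -2.14.

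Over 36 sums of the 4 libraries and the 9 classes with enough cells in each, 14830 other genes were ranked by the Pearson correlation of log2(CPM + 1) with each member. The sums of a library share its depth and those of a class share its cells, so these values are a description. S100b was most like Pcsk6 at 0.924, Gm44386 at 0.918 and Slc35a2 at 0.901. S100a1 was most like Rida at 0.946, Erlec1 at 0.884 and Emc7 at 0.882, and S100a10 most like Glipr2 at 0.905, Sec11a at 0.898 and Lsm5 at 0.853. S100a11 was most like Crip1 at 0.908, Gm17745 at 0.860 and 4930523C07Rik at 0.858. S100a6 was most like Nt5c at 0.863, Insl6 at 0.854 and Cdk2ap2 at 0.852, and S100a4 most like Cdk2ap2 at 0.857, Mir155hg at 0.775 and Gmfg at 0.774. Neutrophils were not among the 9 classes, and the best matches of S100a8 and S100a9 were lower, Sde2 at 0.581, Rtf2 at 0.564 and Bax at 0.559 for S100a8, and Ccl8 at 0.621, Saa3 at 0.568 and Snx6 at 0.556 for S100a9.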

How the data were processed

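Hemispheres were digested, freed of red and dead cells and run on 10x 3′ v3 chips, per the labels' protocols. The deposited matrices hold whole UMI counts per gene and barcode, with no normalization. Per the submitters' processing notes the tools were Cell Ranger 7.0.0, bcl2fastq 5.0.1 and Seurat 4.1.0 with build GRCm39, whereas the file headers name Cell Ranger 8.0.1. Total deposited counts ran from 45691141 to 81189155 UMIs per library.

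Kept barcodes had 500 UMIs and 300 genes or more and a mitochondrial share of 20% or less, and called doublets (4.00 to 5.07%) were removed (scanpy 1.11.5). Cells were gated by 20 classes of 8 markers. Counts were summed per library and class. CPM carry exact Poisson intervals, ratios exact conditional binomial intervals and shares Clopper-Pearson intervals. The ratio code was run on simulated Poisson counts. Those lack the clumping of UMIs in few cells seen here, so they cannot show the coverage of the intervals in these data. With 1 library per group there was no test: a gene passed the fold at a ratio of at least 1.5, or its inverse, with at least 50 UMIs over both libraries and 50 cells in each. PCR copies were collapsed by UMI. TMM factors came from edgeR 4.0.16. Members are described mainly in the larger classes, and border macrophages, for example, are left out of the text. From each list at most the 4 genes with the largest change were named. The members and lists were chosen with earlier results of these data known. Alternatives were other gates, clusters, depth floors, thinning, doublets kept, a mitochondrial limit and TMM.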

Additional observations from a re-analysis of the deposited data

Results flagged for a closer look

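The S100 members differed from UT EV in opposite directions in different cell classes, and 8 such ratios stood apart without a test of the difference between classes, since each group was 1 library. S100a4 with IL-4/C1q EV had a ratio of 2.11 (1.62 to 2.76) in oligodendrocytes and 0.627 (0.539 to 0.729) in microglia. The oligodendrocyte value turned to a log2 ratio of -1.22 with clusters and -0.97 without the 5 highest cells, and the microglial one lay inside 1.5-fold with the stricter gate (-0.40) and clusters (-0.44). With IL-1a/TNFa/C1q EV it stood at 2.52 (1.87 to 3.43) in astrocytes and at 21.1 (6.87 to 106) in neuroblasts, against 0.577 (0.367 to 0.890) in endothelial cells and 0.665 (0.475 to 0.925) in oligodendrocytes. The neuroblast value came from 56 UMIs in IL-1a/TNFa/C1q EV, against 3 in UT EV, with 5 cells holding 91.1% of the 56. Each of these 4 turned in at least 1 setting, to a log2 ratio of -0.40 without the 5 highest cells in astrocytes, -0.33 with clusters in neuroblasts, 0.081 with clusters in endothelial cells and 0.21 with called doublets kept in oligodendrocytes. S100a10 with IL-1a/TNFa/C1q EV stood at 1.56 (1.28 to 1.90) in astrocytes and at 0.498 (0.298 to 0.813) in oligodendrocyte precursors. After thinning the log2 ratio was 0.24 in astrocytes, inside 1.5-fold, and turned to 0.68 in oligodendrocyte precursors.

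S100a4 was also present in cells outside every gate, which no contrast used, at 517 CPM (502 to 532) in IL-4/C1q EV, 441 with IL-1a/TNFa/C1q EV (429 to 454) and 385 (371 to 398) in UT EV, against 64.2 (58.4 to 70.5) in MAPS. No group had enough samples for a search for outlying samples.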

How the results depend on the processing

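Values are log2 ratios, and the settings on transcript length and on the 5 highest cells were chosen after seeing the data. Of 131 ratios reported, 130 of 131 kept their direction with at most 10% mitochondrial UMIs and likewise with a looser gate. It was 125 of 131 with TMM and with doublets kept, 124 of 130 with the 1233-UMI floor and 114 of 130 after thinning. With clusters it was 108 of 118, with the stricter gate 105 of 112, without the 5 highest cells 115 of 127 and by length 118 of 131. Values that stayed inside their counting interval were 68 of 130 after thinning and 68 of 118 with clusters. Of the ratios to UT EV, S100a6 in mural cells of IL-4/C1q EV turned to -0.72 (stricter gate), -0.78 (clusters), -0.17 (thinned) and -0.45 (without 5 cells). S100a11 in astrocytes turned to -0.070 (IL-4/C1q EV) and -0.23 (IL-1a/TNFa/C1q EV) when thinned. S100a4 turned to -1.22 (clusters) and -0.97 (without 5 cells) in oligodendrocytes of IL-4/C1q EV. In IL-1a/TNFa/C1q EV it turned to 0.081 in endothelial cells and -0.33 in neuroblasts (clusters), to 0.21 in oligodendrocytes (doublets kept), and in astrocytes to -0.00057 (stricter gate), -0.37 (thinned) and -0.40 (without 5 cells). S100a10 in oligodendrocyte precursors of IL-1a/TNFa/C1q EV turned to 0.68 (thinned). Anxa1 in oligodendrocytes turned to -0.89 (clusters) and -0.96 (without 5 cells) in IL-4/C1q EV, and to -1.32 (clusters), -0.45 (thinned) and -2.14 (without 5 cells) in IL-1a/TNFa/C1q EV. Bsg in T cells of IL-4/C1q EV turned to -0.23 (clusters), and Ngp in neutrophils of IL-4/C1q EV over IL-1a/TNFa/C1q EV to 0.14 (floor).

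S100a4 in microglia of IL-4/C1q EV, at -0.67, was -0.40 (stricter gate), -0.44 (clusters), -0.92 (thinned) and -0.90 (without 5 cells), and in T cells, at 0.34, was 0.57 (stricter gate) and 0.64 (clusters). S100a6 in astrocytes was 0.48 (thinned) and 0.41 (without 5 cells) in IL-4/C1q EV, and 0.37 (thinned), 0.35 (length) and 0.37 (without 5 cells) in IL-1a/TNFa/C1q EV. S100b in oligodendrocytes of IL-1a/TNFa/C1q EV was 0.58 with TMM. In neutrophils of IL-4/C1q EV over IL-1a/TNFa/C1q EV, S100a8, at -0.08, was 0.27 (floor), 0.11 (TMM), 0.14 (length) and 0.71 (without 5 cells). S100a9, at -0.17, was 0.18, 0.019, 0.049 and 0.60 in the same settings and -0.21 with doublets kept. S100a11, at 0.59, was 0.38 (thinned), 0.78 (TMM), 0.81 (length) and 0.76 (without 5 cells). The causes were not tested. S100a11 in monocytes/macrophages of IL-4/C1q EV ran from 0.90 to 1.03; the stricter gate and clusters left too few cells for a value. No paired analysis was possible because each group has 1 library. Depth limits S100a8 and S100a9 in astrocytes, where few cells had a UMI of them and the source of these UMIs was not tested.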
